A study of Mus musculus with 23 samples.

Results

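The PGC-1 coactivators and the nuclear receptors and transcription factors that work with them were examined as a group of 10 genes, chosen by gene symbol: Ppargc1a, Ppargc1b, Ppara, Ppard, Esrra, Esrrb, Esrrg, Nrf1, Tfam and Perm1. All 10 had counts in both tissues, among 12831 genes in quadriceps and 16962 genes in epididymal fat. The mice were C57BL/6J males that had surgery at 8 weeks of age in a model of pancreatic cancer cachexia, the wasting of muscle and fat. No tumor mice had sham surgery, KPC mice received an injection of KPC cells into the pancreas, and KPC IL6KO mice received KPC cells in which Il6 had been edited. KPC cells came from a pancreatic tumor of a male mouse. The control KPC line was a single clone that had been transfected with a CRISPR plasmid carrying a null guide, and KPC IL6KO was also a single clone. Only the tumor cells were edited, so the host tissues, tumor stroma included, could still make IL-6. Quadriceps was taken from 3 mice of the no tumor group and 4 of each tumor group, and fat came from another set of 4 mice per group. All mice were killed when the KPC group had wasted.

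PGC-1 alpha and PGC-1 beta, encoded by Ppargc1a and Ppargc1b, are transcriptional coactivators: they do not bind DNA themselves but dock on nuclear receptors such as the PPARs and the estrogen-related receptors (ERRs) and recruit chromatin-modifying enzymes. Through ERRs and nuclear respiratory factor 1 they raise the expression of respiratory chain genes and of TFAM, which packages and transcribes mitochondrial DNA, while the PPARs drive genes of fatty acid uptake and oxidation. In skeletal muscle this network is known for its response to exercise and fasting and for setting oxidative capacity, and PERM1 is a muscle protein induced by PGC-1 and ERR.

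The total count per library ranged from 19259763 to 74907810 in quadriceps and from 26306377 to 56308545 in fat, and no tumor 3 was the shallowest quadriceps library. Levels are given as CPM, counts scaled to library size after TMM. A gene was called where edgeR's quasi-likelihood test gave a Benjamini-Hochberg FDR of at most 0.05 over all genes of the tissue and the fold change (FC) was at least 1.5. The quadriceps libraries were muscle by their markers: the 10 muscle fiber genes summed to 142909 to 176862 CPM in no tumor mice, 117862 to 133598 CPM in KPC mice and 165250 to 179261 CPM in KPC IL6KO mice, led by Myh4. The 6 fibroblast genes, led by Dcn, summed to 1215 to 1333 CPM in no tumor and 174 to 290 CPM in KPC. In KPC IL6KO quadriceps the sum was 628 to 991 CPM. Dcn alone was at 268 to 297, 143 to 222 and 194 to 284 CPM in the same order. It thus made up most of each KPC sum, and the sum fell more than Dcn did. The 10 adipocyte genes, led by Pnpla2, summed to 1245 to 4045 CPM in no tumor and 2822 to 3838 CPM in KPC. In KPC IL6KO quadriceps they summed to 1134 to 1637 CPM. Pnpla2 alone was at 310 to 491, 1291 to 2158 and 293 to 429 CPM in the same order. In KPC 3 it made up 2158 of the 2822 CPM. The 4 neutrophil genes, led by S100a8, summed to 0.359 to 0.779, 4.50 to 21.8 and 2.14 to 4.13 CPM, again in that order. The part of these shifts in the results on quadriceps, those on Ppara and the PPAR targets included, was not tested. In bulk tissue, fewer cells of a type and less RNA per cell cannot be told apart.

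Counted per kilobase of exon, the order of the members in no tumor quadriceps was led by Perm1 at 70.8 ± 7.41 CPM per kb (SD, n = 3) and Esrra at 30.5 ± 2.03 CPM per kb. Ppara followed at 10.7 ± 2.59 CPM per kb, with a range that overlapped that of Tfam at 8.73 ± 0.579 CPM per kb. Ppard stood at 5.07 ± 0.213 CPM per kb, apart from its neighbors on both sides. Ppargc1a at 4.00 ± 0.423 CPM per kb and Ppargc1b at 3.41 ± 0.476 CPM per kb overlapped each other, and Esrrg at 1.88 ± 0.248, Nrf1 at 1.36 ± 0.116 and Esrrb at 0.909 ± 0.275 CPM per kb were the lowest, each apart from the next. In KPC quadriceps Perm1 still ranked highest by its mean of 16.6 ± 5.28 CPM per kb (SD, n = 4), and Ppargc1b ranked last at 0.469 ± 0.244 CPM per kb, but every pair of neighbors in that order overlapped.

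In quadriceps of KPC mice the network split. Against no tumor, Ppargc1b, Esrra and Perm1 fell, Ppard and Nrf1 rose, and Ppargc1a, Ppara, Esrrb, Esrrg and Tfam were not called. That made 2 members called up, where 26.7% of all genes were called up, and 3 called down, where 29.0% were. The KPC and no tumor libraries did not overlap for 5 of 10 members, against 65.3% of all genes. The share of members called was thus close to that of the whole transcriptome. The median log2 FC was -0.34 over the members and -0.03 over all genes.

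Promoters of 5 members are shown here because genes of this network are reported to control each other through short motifs. RefSeq windows on GRCm38.p6, from 250 bases before to 50 bases after a transcription start, were examined for 9 of 10 members, in 14 windows. The member left out was Ppargc1b, and its promoter was not tested for motifs. Capitals mark matches, on either strand, to the ERR element TCAAGGTCA, the nuclear receptor half-site AGGTCA that it contains, the NRF1 core GCGCATGC or the ETS motif CCGGAAGT bound by GABP. Esrra lies at chr19:6921759-6922058 on the minus strand, Perm1 at chr4:156215677-156215976, Ppard at chr17:28232504-28232803, Ppara at chr15:85735526-85735825 and the upstream start of Nrf1 at chr6:30047738-30048037, the last 4 on the plus strand.
Esrra: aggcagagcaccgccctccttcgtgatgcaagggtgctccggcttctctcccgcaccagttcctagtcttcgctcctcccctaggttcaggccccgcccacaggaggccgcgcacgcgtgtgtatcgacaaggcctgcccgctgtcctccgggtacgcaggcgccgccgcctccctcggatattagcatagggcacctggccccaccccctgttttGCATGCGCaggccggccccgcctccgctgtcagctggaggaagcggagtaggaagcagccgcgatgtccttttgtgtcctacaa
Perm1: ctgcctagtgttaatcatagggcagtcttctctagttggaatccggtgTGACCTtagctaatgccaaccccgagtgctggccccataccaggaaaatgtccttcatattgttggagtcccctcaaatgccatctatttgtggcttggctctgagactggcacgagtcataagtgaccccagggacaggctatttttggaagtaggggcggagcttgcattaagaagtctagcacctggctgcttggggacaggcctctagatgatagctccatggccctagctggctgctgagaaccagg
Ppard: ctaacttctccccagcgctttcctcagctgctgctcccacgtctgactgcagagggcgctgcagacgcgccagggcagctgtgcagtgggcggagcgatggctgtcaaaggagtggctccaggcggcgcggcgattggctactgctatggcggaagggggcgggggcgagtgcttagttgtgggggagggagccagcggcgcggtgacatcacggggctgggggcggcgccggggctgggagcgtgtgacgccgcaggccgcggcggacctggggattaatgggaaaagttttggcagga
Ppara: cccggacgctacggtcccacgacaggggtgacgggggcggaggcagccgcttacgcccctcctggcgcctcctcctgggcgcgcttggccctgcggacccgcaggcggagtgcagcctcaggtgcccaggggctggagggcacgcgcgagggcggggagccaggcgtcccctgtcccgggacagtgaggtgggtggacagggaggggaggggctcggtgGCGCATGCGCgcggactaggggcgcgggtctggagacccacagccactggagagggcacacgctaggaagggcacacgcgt
Nrf1: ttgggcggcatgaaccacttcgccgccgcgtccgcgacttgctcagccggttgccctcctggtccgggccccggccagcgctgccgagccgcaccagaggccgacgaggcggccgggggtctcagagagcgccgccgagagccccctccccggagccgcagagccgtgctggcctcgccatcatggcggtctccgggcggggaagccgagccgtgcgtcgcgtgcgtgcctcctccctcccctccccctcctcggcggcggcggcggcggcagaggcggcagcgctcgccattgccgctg
The Esrra window held 1 NRF1 core, on the opposite strand, whose first base lay 34 bases before the start. The Ppara window held the NRF1 core on both strands, 31 and 29 bases before the start, and these matches overlapped. Perm1 had 1 half-site on the opposite strand, 202 bases before the start, and the windows of Ppard and Nrf1 held none of the 4 motifs. Among the windows not shown, that of Tfam held 1 ETS motif 47 bases before the start. Over the 32851 windows of the whole RefSeq table, 2.71% held the NRF1 core, 3.89% the ETS motif, 16.3% the half-site and 0.423% the ERR element. The ERR element was in none of the 14 member windows, which says only that these letters were not found there.

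The pair of coactivators moved apart. Ppargc1b stood at 15.2, 14.1 and 11.5 CPM in the no tumor libraries and at 1.74, 3.25, 0.982 and 1.51 CPM in the KPC libraries. Every KPC library lay below every no tumor library, and the log2 FC was -2.87 ± 0.33 (SE), 7.29-fold lower, with an edgeR FDR of 2.20e-05. Ppargc1a, in contrast, read 25.6, 24.1 and 29.5 CPM in no tumor and 27.8, 30.4, 81.0 and 16.5 CPM in KPC quadriceps. KPC 3 stood far above the rest and KPC 4 below all no tumor libraries, so the groups overlapped, and the log2 FC of 0.56 ± 0.41 was not called (edgeR FDR 0.244, interval -0.34 to 1.46). Without KPC 3 it was -0.08. The ratio of Ppargc1a to Ppargc1b counts was 1.68, 1.71 and 2.57 in no tumor libraries and 16, 9.34, 82.5 and 10.9 in KPC libraries. This within-library ratio does not depend on scaling between libraries, and its values did not overlap between the groups. All these values are of RNA. At the protein level, the paper's Western blots of quadriceps found PGC1A and PGC1B unchanged among the groups.

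**Figure D1:**
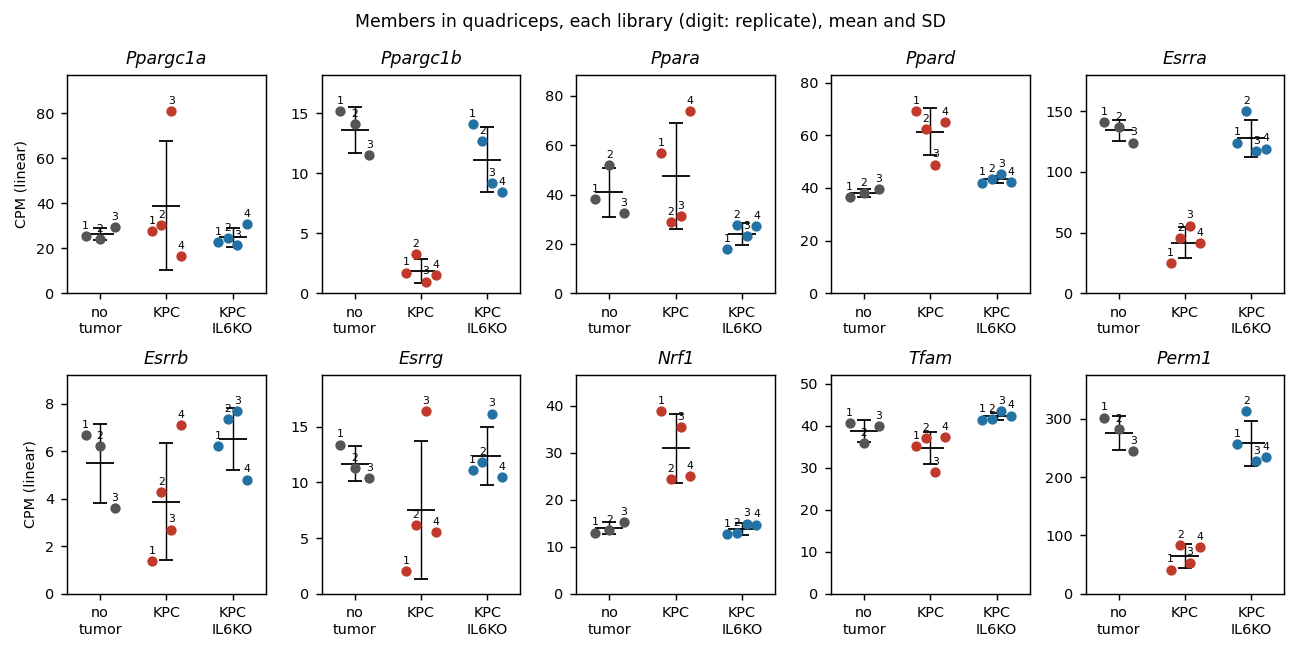
CPM of each member (linear axis) in each quadriceps library, by group; digits give the replicate, horizontal bars the mean and whiskers the SD. Ppargc1b, Esrra and Perm1 were lower in all 4 KPC libraries than in any other, Nrf1 was higher, and KPC 3 alone reached 81.0 CPM for Ppargc1a.

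Among the PPARs, which bind fatty acids and pair with RXR on DNA, Ppard was the member that rose. It read 36.5, 38.1 and 39.7 CPM in no tumor and 69.2, 62.4, 48.9 and 65.1 CPM in KPC quadriceps. All KPC libraries lay above all no tumor libraries, and the log2 FC was 0.69 ± 0.12 (edgeR FDR 0.000307). With library size alone as the scaling, chosen after seeing the data, it was 0.49 and below the FC threshold. Ppara, the receptor best known from liver and from fasting, read 38.2, 51.9 and 32.6 CPM in no tumor and 56.7, 29.0, 31.3 and 73.9 CPM in KPC. KPC 1 and KPC 4 were above and KPC 2 and KPC 3 below all no tumor libraries, and the log2 FC was 0.22 ± 0.31 (edgeR FDR 0.541). Among 6 listed hepatocyte genes, only Alb was measured in quadriceps. KPC 4, the highest library for Ppara, was also the library with Alb at 97.3 CPM, against 0.655 to 1.08 CPM in the other KPC libraries. Whether this bears on Ppara was not tested, and without KPC 4 the log2 FC of Ppara was -0.07.

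The ERRs are orphan receptors that bind the respiratory genes together with PGC-1. Esrra, the most abundant of them, read 141, 137 and 124 CPM in no tumor and 24.8, 45.3, 55.8 and 41.4 CPM in KPC libraries. The groups were far apart, with a log2 FC of -1.68 ± 0.21 and an edgeR FDR of 3.76e-05. Esrrg, the form prominent in oxidative fibers, read 13.4, 11.3 and 10.4 CPM in no tumor and 2.03, 6.16, 16.4 and 5.53 CPM in KPC. In 3 of 4 KPC libraries it was below all no tumor libraries, while KPC 3, the library with the high Ppargc1a, was above them. The log2 FC of -0.64 ± 0.49 was therefore not called (edgeR FDR 0.263), and without KPC 3 it was -1.36 with an FDR of 0.00488 and was called. Esrrb, low in both groups at 3.59 to 6.67 and 1.37 to 7.10 CPM, overlapped between them, with a log2 FC of -0.53 ± 0.43. Without KPC 4, whose Esrrb was highest, this was -1 with an edgeR FDR of 0.0335.

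Nrf1, the gene of nuclear respiratory factor 1 and not Nfe2l1, which shares the name, read 13, 13.6 and 15.3 CPM in no tumor and 38.8, 24.4, 35.5 and 25 CPM in KPC quadriceps. It was higher in 4 of 4 KPC libraries than in any no tumor library, and the log2 FC was 1.15 ± 0.17 (edgeR FDR 0.000128). Tfam, its best-known target in mitochondrial biogenesis, read 40.6, 35.8 and 39.8 CPM in no tumor and 35.2, 37.1, 29.0 and 37.3 CPM in KPC. The groups overlapped, and the log2 FC was -0.16 ± 0.10, with an interval of -0.39 to 0.07, inside 1.5-fold in both directions. Nrf1 and its target thus differed in what the test called.

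Perm1 read 302, 282 and 245 CPM in no tumor and 41.3, 83.5, 53.4 and 80.3 CPM in KPC libraries. No KPC library reached the lowest no tumor library, and the log2 FC was -2.10 ± 0.22, 4.28-fold lower (edgeR FDR 1.23e-05). The ratio of Perm1 to Esrra counts was 1.97 to 2.15 in no tumor, 1.66, 1.84, 0.957 and 1.94 in KPC and 2.07, 2.09, 1.94 and 1.97 in KPC IL6KO libraries. KPC 3 held the lowest of these ratios.

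In quadriceps of KPC IL6KO mice, set against the same no tumor libraries, 0 of 10 members and 0% of all genes were called by edgeR's quasi-likelihood test, while 887 genes had an unadjusted p under 0.05. DESeq2 called 96 genes and edgeR's likelihood ratio test 95, with 0 members among them. Ppargc1b read 14.1, 12.7, 9.22 and 8.47 CPM, with a log2 FC of -0.30 and an interval of -0.99 to 0.40. Perm1 read 257, 313, 227 and 235 CPM, with a log2 FC of -0.10 and an interval of -0.58 to 0.38. Esrra read 124, 150, 117 and 119 CPM, with a log2 FC of -0.07 and an interval of -0.54 to 0.39. These 3 genes overlapped with no tumor, and each interval lay above the whole interval of the same gene in KPC quadriceps. Nrf1 read 12.6, 12.9, 14.9 and 14.7 CPM, with a log2 FC of -0.02 and an interval of -0.39 to 0.35.

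For 3 of 10 members the KPC IL6KO and no tumor libraries did not overlap, against 15.5% of all genes. Ppara was lower in all 4 KPC IL6KO libraries, at 17.8, 27.7, 23.3 and 27.2 CPM, with a log2 FC of -0.77 ± 0.31 and an edgeR FDR of 0.595. Ppard was slightly higher, at 42.0, 43.5, 45.2 and 42.3 CPM, with a log2 FC of 0.18 ± 0.12. Tfam was higher as well, at 41.4, 41.6, 43.4 and 42.4 CPM, with a log2 FC of 0.13 ± 0.10. None of these passed the test, although Ppara had an unadjusted edgeR p of 0.0278. The ratio of Ppargc1a to Ppargc1b counts was 1.61, 1.93, 2.32 and 3.64, which overlapped the no tumor ratios.

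The direct comparison of the 2 tumor groups sets the control clone against the clone with Il6 edited, and it shares its KPC libraries with the comparison to no tumor. The paper reports larger tumors in KPC than in KPC IL6KO mice, and no correlation of tumor mass with muscle mass. Loss of Il6, clone and tumor size cannot be told apart in this comparison. Members called up numbered 2, where 26.4% of all genes were called up, and members called down numbered 3, where 27.3% were. Ppargc1b had a log2 FC of -2.57 ± 0.32 in KPC against KPC IL6KO (edgeR FDR 3.13e-05), Esrra -1.61 ± 0.20 (FDR 3.33e-05) and Perm1 -2.00 ± 0.21 (FDR 1.10e-05). Nrf1 was higher in KPC with a log2 FC of 1.17 ± 0.16 (edgeR FDR 5.31e-05). The fifth gene called was Ppara, at 0.99 ± 0.29 (edgeR FDR 0.00920): its KPC libraries, from 29.0 CPM, all lay above its KPC IL6KO libraries, up to 27.7 CPM. Ppard at 0.50 ± 0.11 (edgeR FDR 0.00132) and Tfam at -0.28 ± 0.10 (FDR 0.0208) passed the FDR but not the FC of 1.5. The libraries did not overlap for these 7 members, against 62% of all genes. Ppargc1a, with a log2 FC of 0.65 ± 0.38, overlapped, and it was 0.00 without KPC 3 and 0.90 and called, at an edgeR FDR of 0.0265, without KPC 4. Without KPC 3, Esrrg went from -0.72 to -1.44 (edgeR FDR 0.00258) and Ppard to 0.60 (FDR 4.73e-05), and both were called. Without KPC 4, Esrrb went from -0.76 to -1.23 (edgeR FDR 0.00976) and was called.

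**Figure D2:**
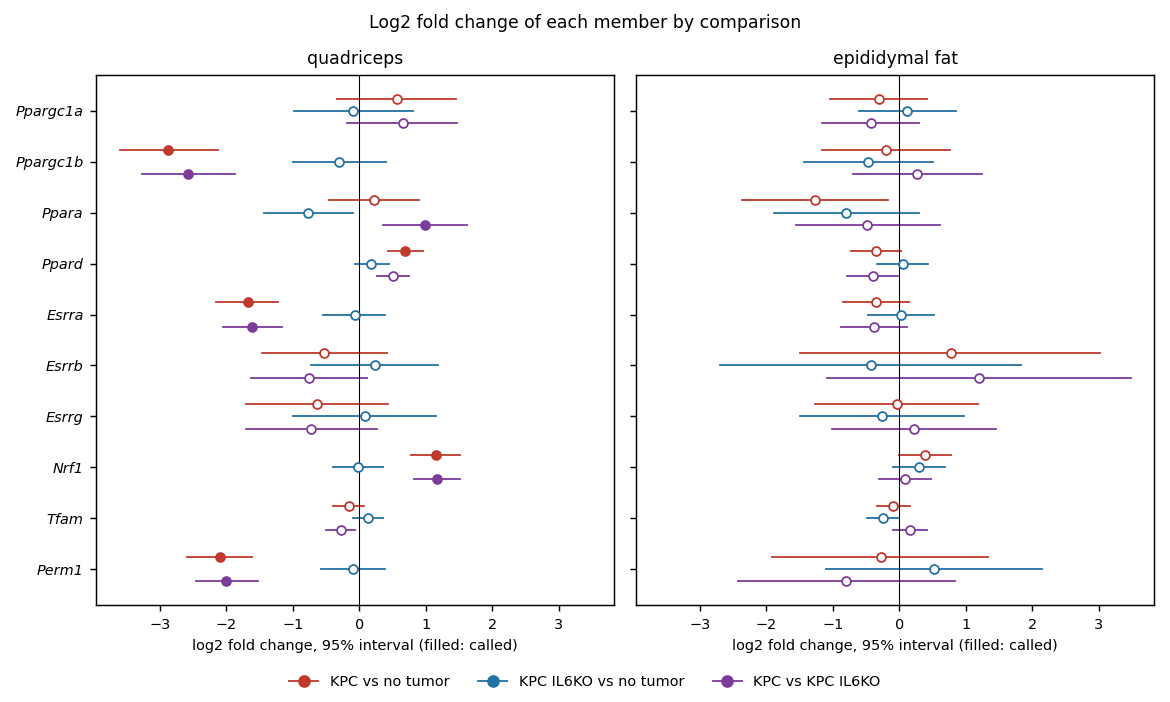
Log2 fold change of each member (points) with its 95% interval (lines) in 3 comparisons in quadriceps (left) and epididymal fat (right); filled points were called. In quadriceps the called members are Ppargc1b, Esrra and Perm1 below 0 and Nrf1 above 0 in both comparisons of KPC, with Ppard called against no tumor and Ppara against KPC IL6KO, and no point is filled in fat.

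Genes around the members were followed as lists, whose counts are to be read beside the shares of all genes: 26.7% called up and 29.0% down in KPC against no tumor, and 26.4% and 27.3% in KPC against KPC IL6KO. Of 7 genes listed around Nrf1 in quadriceps, 4 were called up and 0 down in KPC against no tumor. Their median log2 FC was 0.66 beside -0.03 for all genes. The list holds Sp1 and also Nfe2l1 and Nfe2l2, so it is not a list of NRF1 partners alone. Sp1, a general promoter-binding factor, had a log2 FC of 1.32 ± 0.13 (edgeR FDR 8.82e-06), and Nfe2l2, the regulator of antioxidant genes, had 1.32 ± 0.13 as well (FDR 9.05e-06). The highest of the list in CPM, Nfe2l1, was not called at 0.27 ± 0.13. Against KPC IL6KO 5 of 7 were called up, and 3 without KPC 1.

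Of 36 measured ERR and NRF1 targets of respiration, 0 were called up and 12 down, with a median log2 FC of -0.46. Among all genes 26.7% were called up and 29.0% down. The count of 12 was 9 without KPC 1 and 22 without normalization factors, an alternative chosen after seeing the data. Mitochondrial creatine kinase Ckmt2 averaged 1389 ± 235 CPM (SD) in no tumor and 482 ± 309 CPM in KPC, a log2 FC of -1.53 ± 0.39 (edgeR FDR 0.00476). Cox7a1, a subunit of cytochrome c oxidase in muscle, had a log2 FC of -1.17 ± 0.22 (FDR 0.000685), and Idh3a of the citric acid cycle had -1.15 ± 0.14 (FDR 3.07e-05). The gene highest in mean CPM over all libraries, the ATP synthase subunit Atp5b, had -0.34 ± 0.15 and was not called (edgeR FDR 0.0556). Of 25 measured PPAR targets of fatty acid use, 11 were called up and 1 down, with a median log2 FC of 0.39. Pdk4, the kinase that inhibits pyruvate dehydrogenase, averaged 443 ± 183 CPM in no tumor and 5219 ± 607 CPM in KPC, a log2 FC of 3.56 ± 0.47 (edgeR FDR 4.89e-05). The acyl-CoA thioesterases Acot1 and Acot2 had log2 FCs of 5.14 ± 0.89 and 3.57 ± 0.41 (edgeR FDR 0.000357 and 1.96e-05). Cpt1a was the target called down, at -0.63 ± 0.20 (edgeR FDR 0.0171), just past the FC threshold, and without no tumor 1 it was -0.55 with an FDR of 0.0700.

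Of 20 coactivators and corepressors 9 were called up and 1 down, beside 26.7% and 29.0% of all genes, with a median log2 FC of 0.30. Lpin1, the phosphatidate phosphatase that coactivates PPAR alpha with PGC-1 alpha, averaged 358 ± 34.9 CPM in no tumor and 1403 ± 347 CPM in KPC, a log2 FC of 1.97 ± 0.20 (edgeR FDR 8.48e-06). Mybbp1a, a repressor of PGC-1 alpha, had a log2 FC of 1.84 ± 0.18 (FDR 6.27e-06), and the acetyltransferase Crebbp had 1.36 ± 0.19 (FDR 6.35e-05). Fbxw7, a ubiquitin ligase subunit, was the gene called down, at -1.19 ± 0.11 (edgeR FDR 4.42e-06).

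Of 32 measured genes of upstream signaling, 11 were called up and 6 down, beside 26.7% and 29.0% of all genes, with a median log2 FC of 0.10. The forkhead factors Foxo1 and Foxo3 rose, Foxo1 from 24.1 ± 10.4 to 169 ± 49.3 CPM, a log2 FC of 2.82 ± 0.32 (edgeR FDR 1.81e-05), and Foxo3 with a log2 FC of 2.07 ± 0.20 (FDR 6.09e-06). Among the 6 called down, the p38 kinase activator Map2k6 had a log2 FC of -3.80 ± 0.31 (edgeR FDR 2.32e-06), the AMPK subunit Prkag3 -3.64 ± 0.30 (FDR 2.77e-06) and the muscle transcription factor Mef2c -2.54 ± 0.22 (FDR 3.16e-06). The gene highest in mean CPM over all libraries, the AMPK subunit Prkab2, was not called at -0.31 ± 0.16 (edgeR FDR 0.114). The class IIa deacetylase Hdac4, which holds MEF2 back, rose by a log2 FC of 1.73 ± 0.35 (edgeR FDR 0.000966). Ppargc1a itself did not follow any single direction across the same 4 KPC libraries.

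Of 12 partner nuclear receptors 2 were called up and 4 down, beside 26.7% and 29.0% of all genes, with a median log2 FC of -0.25. Rxra, which had the highest mean over all quadriceps libraries, averaged 239 ± 21.4 CPM in no tumor and 351 ± 51.2 CPM in KPC, a log2 FC of 0.56 ± 0.13 (edgeR FDR 0.00198) that missed the FC of 1.5, and it was called in 5 of 20 alternatives. Rora had a log2 FC of 2.22 ± 0.27 (edgeR FDR 3.21e-05), Rxrb, a partner of the PPARs, 0.86 ± 0.14 (FDR 0.000202) and Rxrg, which encodes RXR gamma, -2.56 ± 0.19 (FDR 1.37e-06). Nr4a1, an orphan receptor induced by exercise, had -2.29 ± 0.34 (edgeR FDR 0.000110). Its relative Nr4a3 had -1.50 ± 0.43 (FDR 0.00911), and without no tumor 1 it was -1.20 with an FDR of 0.0516. Nr4a3 was also the list gene with the smallest p in KPC IL6KO against no tumor, at 2.24 ± 1.09 against 16.6 ± 8.66 CPM, a log2 FC of -2.90 ± 0.45 with an edgeR FDR of 0.162. It was called there by DESeq2 (FDR 2.43e-07) and by edgeR's likelihood ratio test (FDR 1.68e-06). Nr4a3 also differed between the tumor groups, at 5.93 ± 1.92 CPM in KPC, a log2 FC of 1.40 ± 0.42 against KPC IL6KO (edgeR FDR 0.0108).

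Around Tfam, 4 of 16 measured genes of mitochondrial DNA transcription and replication were called up and 2 down, beside 26.7% and 29.0% of all genes, with a median log2 FC of 0.10. Tfb2m, the transcription factor that melts the mitochondrial promoter beside TFAM, had a log2 FC of 0.94 ± 0.13 (edgeR FDR 6.50e-05), and Mterf3 had 1.04 ± 0.14 (FDR 6.02e-05). The gene highest in mean CPM over all libraries, the protease Lonp1, had 0.47 ± 0.09 (edgeR FDR 0.000498), under the FC of 1.5. Mterf2 fell from 11 ± 1.03 to 1.61 ± 1.46 CPM, a log2 FC of -2.78 ± 0.50 (edgeR FDR 0.000473), and the exonuclease Mgme1 had -1.14 ± 0.13 (FDR 2.30e-05). Of 13 measured genes of the PGC-1 alpha muscle program, 2 were called up and 4 down, beside 26.7% and 29.0% of all genes, with a median log2 FC of -0.22. Metrnl had a log2 FC of -1.89 ± 0.30 (edgeR FDR 0.000208) and Ccbl1 -1.53 ± 0.23 (FDR 0.000146). Fndc5, the irisin precursor, had a log2 FC of -1.11 ± 0.33 (edgeR FDR 0.00987), the lactate carrier Slc16a1 1.16 ± 0.21 (FDR 0.000494) and myoglobin, Mb, -0.72 ± 0.37 without being called. Without KPC 4, Mb was called at -1.16 (edgeR FDR 0.00534). Genes encoded in mitochondrial DNA could not be followed, because 0 of 26 symbols listed for them were among the genes of either tissue.

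In KPC IL6KO quadriceps edgeR's quasi-likelihood test called 0 genes of all these lists against no tumor, while DESeq2 and the likelihood ratio test each called 1, Nr4a3. The list medians lay between -0.05 and 0.12 beside 0.00 for all genes. Angptl4 had the smallest p among the PPAR targets, with a log2 FC of -1.66 ± 0.50 (edgeR FDR 0.422), and without no tumor 2 it was -0.87. Against KPC IL6KO, the KPC libraries had 12 of 36 respiration genes called down and 0 up, and 10 of 25 PPAR targets called up and 1 down. Pdk4 had a log2 FC of 2.52 ± 0.39 there (edgeR FDR 0.000164) and Ckmt2 -1.58 ± 0.37 (FDR 0.00278). The counts against no tumor and against KPC IL6KO share the KPC libraries.

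**Figure D3:**
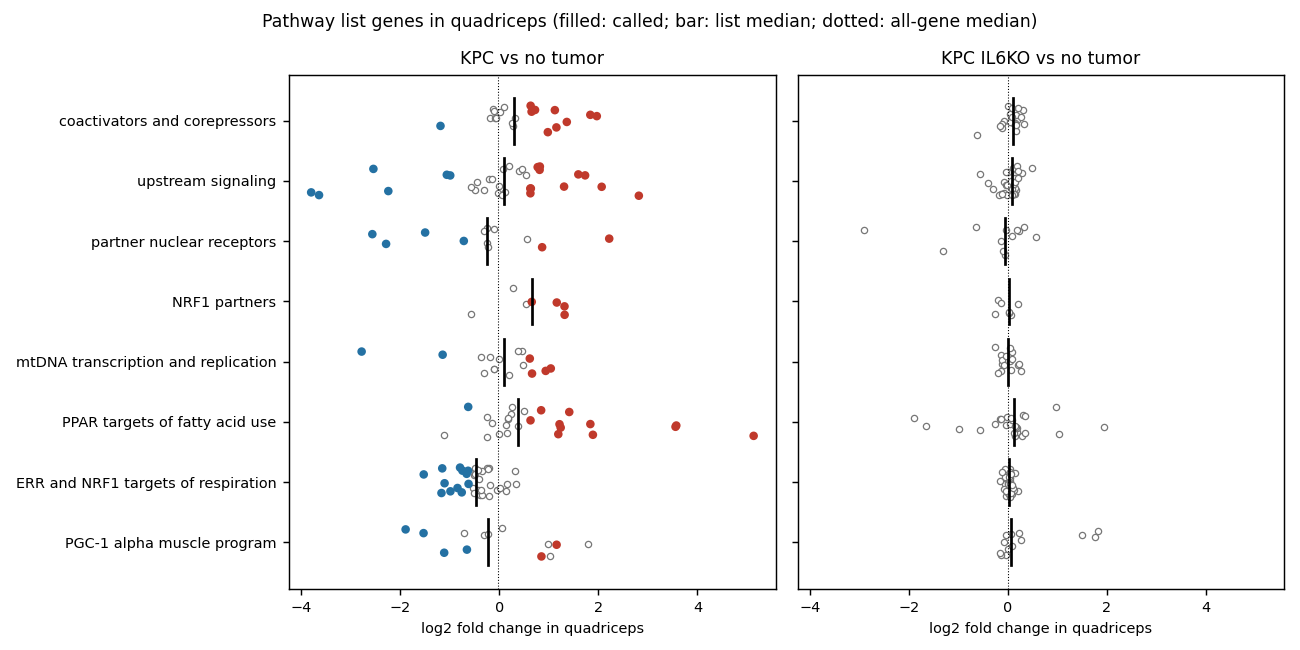
Log2 fold change of each measured gene of 8 pathway lists in quadriceps, for KPC against no tumor (left) and KPC IL6KO against no tumor (right); filled points were called (red up, blue down), thick bars are list medians and the dotted line is the median of all genes. On the left the respiration list lies mostly below 0 (12 called down, 0 up) and the PPAR list mostly above (11 up, 1 down), and on the right no point is filled.

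The genes whose log2 CPM ran most like Ppargc1a over the 11 quadriceps libraries were 4933434E20Rik, with a Pearson r of 0.960, Zzz3 with 0.950 and Cdc42se2 with 0.946. Those most like Perm1 were Lace1 with 0.997, 1700021F05Rik with 0.996 and Klhdc10 with 0.996. These values describe the libraries only: for Perm1 the KPC libraries lie apart from the rest, and any gene with the same split gives a high r.

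The fat libraries differed widely in markers of other tissue. Gpx5, an enzyme secreted by the epididymis, read 39292, 52.2, 34256 and 4.81 CPM in no tumor 5 to 8, then 28239, 40388, 24600 and 21347 CPM in KPC 5 to 8. In KPC IL6KO 5 to 8 it read 85.8, 54957, 4.69 and 5.65 CPM. Gpx5 was thus 21347 CPM or more in 7 of 12 fat libraries, all KPC libraries among them. The 18 epididymis genes in the table summed to 13622 to 107876 CPM in no tumor, 49724 to 82302 CPM in KPC and 4317 to 112389 CPM in KPC IL6KO fat. In the 5 libraries low in Gpx5 these genes still summed to 13622 and 18856 CPM (no tumor 6 and 8) and to 4317, 15990 and 10348 CPM (KPC IL6KO 5, 7 and 8), so low Gpx5 did not mean that the other epididymis genes were absent. The 10 adipocyte genes, led by Fabp4, summed to 2559 to 41223 CPM in no tumor, 3148 to 12821 CPM in KPC and 5553 to 23494 CPM in KPC IL6KO libraries. The macrophage genes, led by Lyz2, summed to 194 to 788 CPM in no tumor, 875 to 1371 CPM in KPC and 323 to 2282 CPM in KPC IL6KO fat. The 9 muscle fiber genes in the table, led by Des, summed to 51.9 to 658 CPM in no tumor, 30.7 to 43.9 CPM in KPC and 221 to 2770 CPM in KPC IL6KO fat. Neutrophil genes, led by Csf3r, summed to 2.79 to 6.37 CPM, 20.5 to 49.7 CPM and 4.29 to 58.3 CPM in the same order. The part of these marker levels in the results on fat was not tested.

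Per kilobase of exon the order in no tumor fat differed from muscle: Tfam was highest at 10.6 ± 0.956 CPM per kb (SD, n = 4). Esrra at 6.56 ± 2.31, Ppara at 6.36 ± 2.20 and Ppard at 6.15 ± 1.26 CPM per kb overlapped one another, and Ppargc1a stood at 1.27 ± 0.274 CPM per kb. Perm1 at 0.285 ± 0.185 and Esrrb at 0.120 ± 0.0855 CPM per kb were lowest. Perm1, the most abundant member of the set per length in muscle, was thus near the bottom in fat.

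No member was called in fat: 0 of 10 in each comparison, with 0% of all genes called by edgeR's quasi-likelihood test. At an unadjusted p under 0.05 there were 2061 genes in KPC against no tumor, 1584 in KPC IL6KO against no tumor and 1062 in KPC against KPC IL6KO. DESeq2 called 585, 286 and 125 genes and edgeR's likelihood ratio test 413, 209 and 66, with 0 members among them. The common dispersion of the fat libraries was 0.403, beside 0.0517 in quadriceps. Groups did not overlap for 1 of 10 members in KPC against no tumor (10.9% of all genes), 1 in KPC IL6KO against no tumor (2.01%) and 2 in KPC against KPC IL6KO (4.33%).

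**Figure D4:**
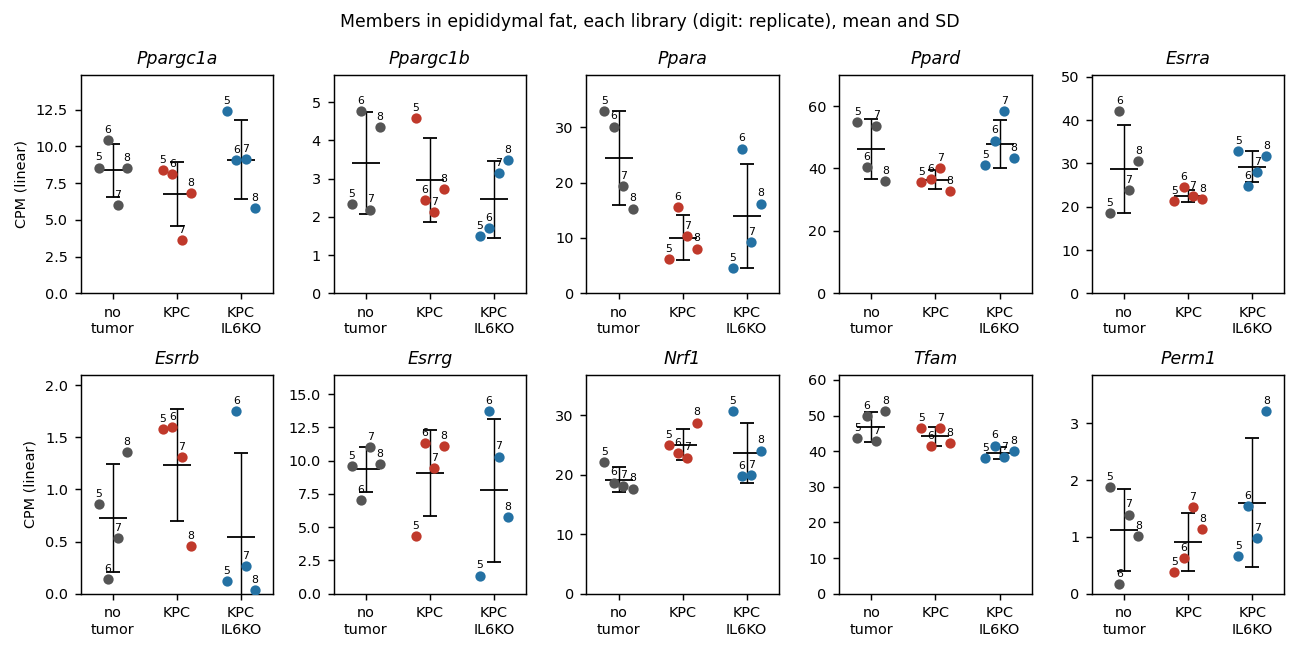
CPM of each member (linear axis) in each epididymal fat library, by group; digits give the replicate, horizontal bars the mean and whiskers the SD. The groups overlap for most members, with Ppara lowest on average in KPC and Esrrb split within every group.

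Ppara was the 1 member with an unadjusted edgeR p under 0.05 between KPC and no tumor fat. It read 32.9, 30.1, 19.3 and 15.3 CPM in no tumor, 6.25, 15.6, 10.4 and 8.06 CPM in KPC, and 4.52, 26.1, 9.18 and 16.2 CPM in KPC IL6KO. KPC 6 just overlapped no tumor 8, and the log2 FC of KPC against no tumor was -1.27 ± 0.50 with an unadjusted edgeR p of 0.0269 and an FDR of 0.355. With Gpx5 and Crisp1 as covariates it was -1.50 (edgeR FDR 0.281). KPC IL6KO 6, the library of its group rich in Gpx5, was also its highest for Ppara. It held the hepatocyte marker Alb at 283 CPM as well, against 13.8 CPM or less in the other fat libraries, and whether this bears on Ppara was not tested.

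Nrf1 read 22.2, 18.7, 18.2 and 17.7 CPM in no tumor fat and 25, 23.7, 22.9 and 28.8 CPM in KPC fat. It was the member whose KPC libraries were all above no tumor, with a log2 FC of 0.39 ± 0.18 and an edgeR FDR of 0.414, and 0.35 with Gpx5 and Crisp1 as covariates. Tfam was lower in all KPC IL6KO libraries, at 38.1, 41.6, 38.4 and 40.1 CPM, than in no tumor, at 43.7, 49.8, 42.8 and 51.2 CPM, with a log2 FC of -0.24 ± 0.11 and an edgeR FDR of 0.540. Between the tumor groups, Ppard was lower in KPC, at 32.8 to 40.2 CPM against 41.1 to 58.4 CPM, with a log2 FC of -0.40 ± 0.17 (edgeR FDR 0.784). Esrra was lower in KPC as well, at 21.3 to 24.5 CPM against 24.7 to 32.8 CPM, with a log2 FC of -0.38 ± 0.23 (edgeR FDR 0.906). With the same covariates the log2 FC was -0.29 for Tfam, -0.62 for Ppard and -0.02 for Esrra in these comparisons.

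The other members overlapped between groups in fat. Ppargc1b read 2.33, 4.77, 2.19 and 4.35 CPM in no tumor and 4.58, 2.43, 2.12 and 2.73 CPM in KPC, and its log2 FC of -0.20 ± 0.44 had an interval of -1.16 to 0.76, above the whole interval in muscle of -3.60 to -2.13. It became 0.19 with Gpx5 and Crisp1 as covariates. Ppargc1a ranged from 6.00 to 10.4 CPM in no tumor, 3.64 to 8.38 CPM in KPC and 5.78 to 12.4 CPM in KPC IL6KO. Esrrg ranged from 7.02 to 11, 4.35 to 11.3 and 1.35 to 13.7 CPM in the same order. Perm1, at 0.173 to 3.21 CPM over all fat libraries and 5 to 105 counts, was too low and too variable for a narrow estimate, with an interval of -1.91 to 1.34 for KPC against no tumor. Its highest value, 3.21 CPM, was in KPC IL6KO 8, the library with the highest sum of muscle fiber genes at 2770 CPM.

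Esrrb in fat read 0.859, 0.138, 0.535 and 1.36 CPM in no tumor, 1.58, 1.6, 1.31 and 0.455 CPM in KPC and 0.123, 1.75, 0.267 and 0.0306 CPM in KPC IL6KO, where the last value was 1 count. Among KPC IL6KO libraries the highest was again the one rich in Gpx5, while among no tumor libraries the highest was no tumor 8, where Gpx5 was 4.81 CPM and the epididymis genes summed to 18856 CPM. Its log2 FC of KPC against no tumor was 0.77 ± 1.03, and with Gpx5 and Crisp1 as covariates it was -0.38, so no direction can be given.

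**Figure D5:**
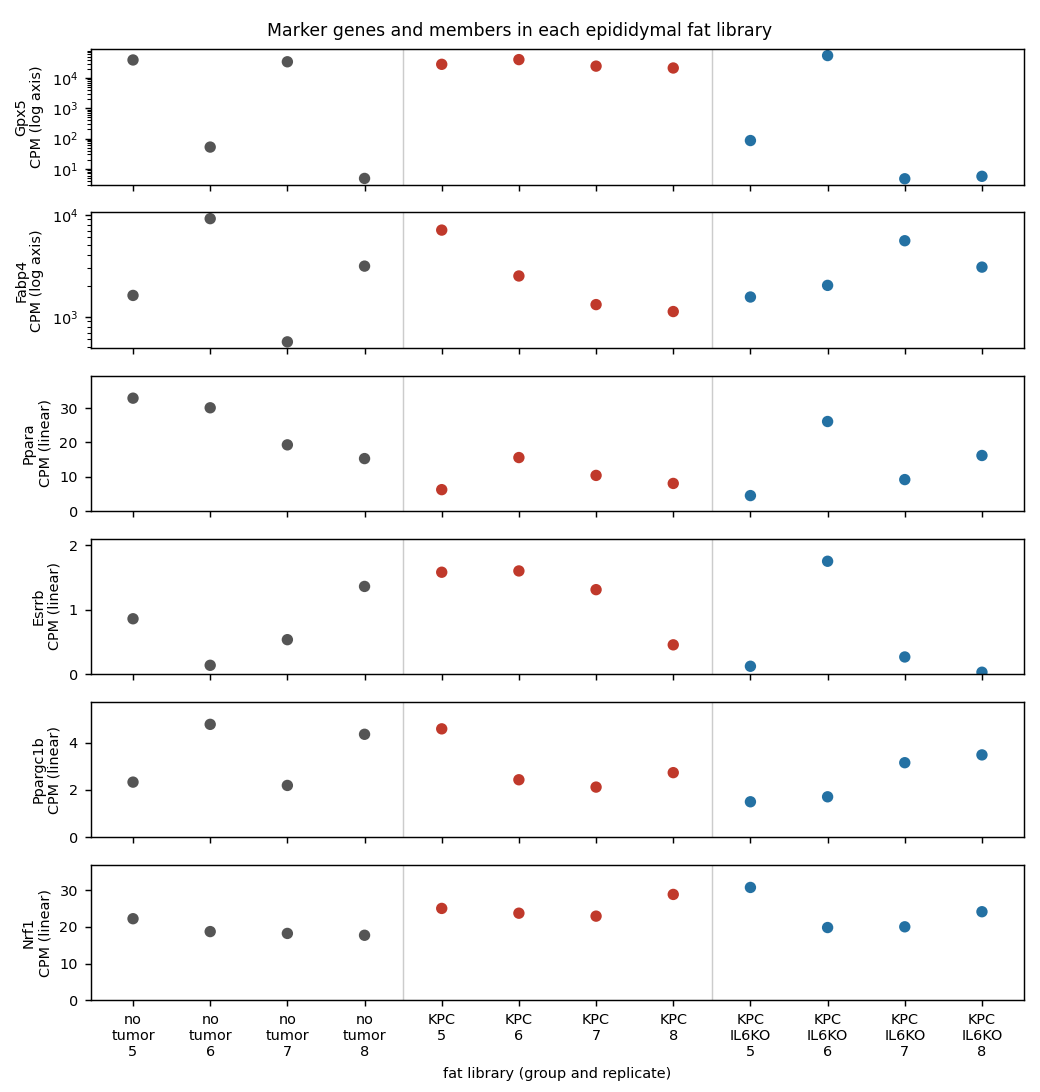
CPM of the epididymis marker Gpx5 and the adipocyte marker Fabp4 (log axes) and of Ppara, Esrrb, Ppargc1b and Nrf1 (linear axes) in each of the 12 fat libraries. Gpx5 is 21347 CPM or more in 7 libraries and 85.8 CPM or less in 5, and all 4 KPC libraries are among the 7.

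In fat, edgeR's quasi-likelihood test called 0 genes of the lists. In KPC against no tumor DESeq2 called 2 PPAR targets and 1 gene of the muscle program, and the likelihood ratio test called 1 of each and 1 gene of upstream signaling, Prkag3 (FDR 0.0307). For KPC against no tumor the median log2 FC over all genes was -0.10. It was -0.26 over 35 respiration targets, -0.10 over 26 PPAR targets and -0.47 over 12 partner nuclear receptors. For the genes listed around Nrf1 it was 0.20 and for coactivators and corepressors -0.01. Upstream signaling had -0.06, mitochondrial DNA transcription and replication -0.10 and the muscle program -0.22. Slc2a4, the insulin-responsive glucose carrier, averaged 98 ± 107 CPM in no tumor and 17.9 ± 4.94 CPM in KPC fat, a log2 FC of -2.45 ± 0.73 (edgeR FDR 0.255). DESeq2 (FDR 0.0177) and the likelihood ratio test (FDR 0.0343) called Slc2a4, and without no tumor 6 its log2 FC was -1.36. Vnn1, a PPAR alpha target, was at 3.30 ± 2.07 CPM in no tumor and 36.1 ± 26 CPM in KPC, a log2 FC of 3.45 ± 0.92 (edgeR FDR 0.233). It was called by DESeq2 (FDR 0.00292) and by the likelihood ratio test (FDR 0.0108). Those tools also called Vnn1 in KPC IL6KO against no tumor (FDR 0.0159 and 0.0362), where the quasi-likelihood FDR was 0.394. The log2 FC there was 3.12 ± 0.91, and 1.86 without KPC IL6KO 5. For Cd36, the fatty acid carrier and the PPAR target highest in mean CPM, the SD of 1801 CPM in no tumor was larger than its mean of 1546 CPM.

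Whether muscle and fat differed in their response was tested over the 12599 genes in both tables. This test used edgeR's newer quasi-likelihood fit, while the main results within each tissue used the older form. The older form was not run for the difference between tissues. The effect of KPC against no tumor differed between tissues for 5 of 10 members, where 36.9% of all genes differed. The quadriceps log2 FC minus the fat log2 FC was -2.75 ± 0.55 for Ppargc1b (edgeR FDR 0.000740), -1.43 ± 0.33 for Esrra (FDR 0.00197) and -1.93 ± 0.72 for Perm1 (FDR 0.0388). It was 0.92 ± 0.21 for Ppard (edgeR FDR 0.00250) and 0.65 ± 0.23 for Nrf1 (FDR 0.0322). Nrf1 and Perm1 stood close to the threshold, and leaving out quadriceps no tumor 1, no tumor 2, KPC 1 or KPC 3, or fat KPC 7, left 3 members called. For KPC IL6KO against no tumor, 0 members and 0% of all genes differed between tissues. The paper gives a separate library preparation for each tissue, and the mice differed. Tissue and preparation therefore cannot be told apart in the levels, while each log2 FC is taken within a tissue.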

How the data were processed

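RNA from quadriceps (11 libraries) and epididymal fat (12 libraries) was sequenced, 1 library per mouse. The authors deposited 1 table of raw counts per tissue; their processing notes name STAR, featureCounts 1.5.1, edgeR 3.12.1 and mm10. Library kit and RNA quality limit are given differently in the paper and the labels. The authors removed 1 no tumor muscle sample as an outlier, which was not analysed here.

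Counts were analysed in R 4.3.3 with edgeR 4.0.16 (TMM, filterByExpr, which removed 0 genes, and the quasi-likelihood test with the 3 groups of a tissue in 1 fit) and, as an alternative, DESeq2 1.42.0. Intervals are 95% intervals of the fit. Other alternatives were the likelihood ratio test, RLE scaling, other filters, fits of only the groups compared, a replicate block, each library left out and epididymis covariates. Tissue differences were tested as an interaction over 23 libraries, with the newer edgeR quasi-likelihood fit. The main fits within a tissue used the older form. Exon lengths came from GENCODE and promoters from RefSeq, both on GRCm38. A count of 3 or fewer was not told apart from 0. Scripts were tested on simulated data. Figures used Python with matplotlib.

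Members and lists were chosen with earlier results of these data known. All members are named. Named list genes were taken from the most abundant of each list, up to 3 called per direction by size, and the smallest p where none was called. Markers are named by the most abundant gene of each list, and 3 genes most like Ppargc1a and Perm1 are named by Pearson r. Genes outside that rule, such as Alb, were named after their values were seen.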

Additional observations from a re-analysis of the deposited data

Results flagged for a closer look

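In 50 groups of 4 libraries (1 per member, tissue and group), 1 library stood far from the others on the log2 scale: Esrrb in fat KPC 8, at 0.455 CPM beside 1.31 to 1.6 CPM in the other KPC libraries. Chance alone flags about 1 group in 20, so 1 of 50 is not more than that.

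The response to KPC differed between quadriceps and fat in a test of the difference for 5 of 10 members, where 36.9% of all genes differed. The quadriceps log2 FC minus the fat log2 FC was -2.75 for Ppargc1b, -1.43 for Esrra and -1.93 for Perm1, and 0.92 for Ppard and 0.65 for Nrf1. Nrf1 (FDR 0.0322) and Perm1 (FDR 0.0388) by edgeR were close to the threshold, and leaving out any of 5 single libraries left 3 members called. In quadriceps the KPC libraries lay outside the no tumor range for these 5 genes (65.3% of all genes), and in fat 4 of the 5 overlapped (10.9% of all genes did not), with Nrf1 higher in all 4 KPC libraries. All KPC fat libraries carried Gpx5 at 21347 CPM or more, and the part of this in the tissue difference was not tested.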

How the results depend on the processing

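The members called in quadriceps kept their direction under every alternative, but leaving out 1 library took the number called from 5 to 6 against no tumor and to 7 against KPC IL6KO, and the number of genes called in the comparisons with 0 calls depended on the tool. In quadriceps KPC IL6KO against no tumor, DESeq2 called 96 genes and edgeR's likelihood ratio test 95, and leaving out each library in turn gave 0 to 2 (2 without KPC IL6KO 1). In fat KPC against no tumor, DESeq2 called 585 genes, the likelihood ratio test 413, a fit of only the 2 groups 174, Gpx5 and Crisp1 as covariates 72 and the newer edgeR quasi-likelihood fit 16, an alternative chosen after seeing the data; leaving out each library gave 0 to 15 (15 without KPC IL6KO 6). In fat KPC IL6KO against no tumor these were 286 with DESeq2, 209 with the likelihood ratio test and 0 to 13 with a library left out (13 without KPC IL6KO 6). In fat KPC against KPC IL6KO, DESeq2 called 125, the likelihood ratio test 66, the covariates 2 and the newer fit 1. No member was called in fat under any alternative. With the replicate number as a block, quadriceps KPC against no tumor had 7043 genes called beside 7147, with 5 members in both, but the replicate numbers do not pair mice. Without normalization factors, chosen after seeing the data, the genes called up and down there were 2622 and 4499 beside 3428 and 3719, and Ppard fell below the fold change threshold, leaving 4 members. Members that differed between tissues for KPC numbered 5, and 3 to 6 with a library left out (6 without fat KPC IL6KO 5). In quadriceps against no tumor, Ppargc1a turned from 0.56 to -0.08 without KPC 3 and Ppara from 0.22 to -0.07 without KPC 4, while Esrrg without KPC 3 and Esrrb without KPC 4 became called. The cause was not tested. With 3 or 4 mice per group, 1 clone per tumor line and bulk tissue, the differences between tumor groups are also differences between 2 clones.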
